A study of Drosophila melanogaster with 4 samples.

Results

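Pis, sl, Pkc53E and S6k are the 4 genes of inositol lipid signalling, and of protein kinases linked to it, described here in fly heads. They were chosen by their gene symbols, as named members of a pathway on which mood stabilisers act, and are 4 of the 524 named genes that had a value on at least 3 of the 4 arrays. Each gene had 1 clone on the array, spotted 2 times side by side. The study asked which transcripts differ between the heads of Drosophila melanogaster males given sodium valproate (NaVP) and those of males on normal food. NaVP is used against epilepsy and as a mood stabiliser. Unmated Oregon-R wild-type males, 10 to 11 days old and housed 30 to a vial, were kept for 3 days on food with 0.33 mg/ml NaVP or on normal food. No transgene or mutant allele was involved, and both groups share the strain, the sex and the fly medium. Each of 4 two-colour cDNA arrays compared 1 pool of treated heads with 1 pool of control heads, and the design text counts the 4 as biological replicates. NaVP RNA was labelled with Cy5 on arrays 1 and 2 and with Cy3 on arrays 3 and 4.

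Phosphatidylinositol is made from inositol and an activated lipid precursor, is phosphorylated by lipid kinases, and is then cut by phospholipase C into a soluble messenger, inositol trisphosphate (IP3), and a membrane messenger, diacylglycerol. IP3 releases stored calcium, and calcium and diacylglycerol together activate conventional protein kinase C. A parallel branch runs from phosphoinositide 3-kinase through Akt and TOR to the S6 kinase, which phosphorylates a ribosomal protein and promotes growth. Lithium, another mood stabiliser, inhibits inositol monophosphatase, and in yeast valproate lowers cellular inositol. In the fly eye, phospholipase C signalling carries the light response, so a head holds much of this machinery in its photoreceptors.

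A value is the log ratio of the dyes at a spot, taken as base 2, averaged over the spots of a clone and centred on the median of all clones of that array. Array medians before centring were 1.01, 1.05, 0.54 and 0.24 on the log2 scale. The labels state neither the base of the log nor whether the ratios of arrays 3 and 4, the swap arrays, had already been turned to NaVP over normal food, so each result is given under 2 readings. In the turned reading the sign of the swap arrays is reversed before averaging, and in the reading called as deposited it is kept. "Higher" and "lower" refer to NaVP heads under the named reading and assume that the ratio on arrays 1 and 2 is NaVP over normal food, an order that no label gives for the values. Neither reading is preferred here. The labels list the Cy5 channel first for all 4 arrays. Over the 453 clones with 4 values, the centred values as deposited correlated across clones at 0.56 between arrays 1 and 2 and at 0.35 between arrays 3 and 4. Between a Cy5 and a Cy3 array the correlation was -0.12 (1 and 3), 0.17 (1 and 4), -0.048 (2 and 3) and 0.28 (2 and 4), and turning the swap arrays reverses these 4 signs. The median SD of a clone between arrays was 0.254 in the turned reading and 0.237 as deposited. Values were listed for 5225, 1322, 3753 and 3199 of 27648 spots on arrays 1 to 4, and 1030 clones had a value on at least 3 arrays. Spot intensities were not used here, so how bright a spot was cannot be given, and the number of arrays limits the precision.

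None of the 4 genes passed the test for a difference between NaVP and control heads. All 13 clone values of these genes lay within 0.444 of the array median on the log2 scale, a 1.36-fold deviation at most. Across all 1030 clones, limma's test of the mean against 0 with Benjamini-Hochberg adjustment called 1 clone in the turned reading (0.0971%) and 8 as deposited (0.777%), and 0 of the 4 genes were among them under either reading. A SAM statistic, the kind of test named in the design text, was computed here with 8 patterns of sign changes of the arrays. It called 0 of the 4 genes and 1 of all 1030 clones under either reading. None of the 4 genes had an unadjusted limma p under 0.05, against 6.89% of all clones in the turned reading and 14.1% as deposited. The widest 95% limma intervals among the 4 genes reached from -0.57 to 0.55 on the log2 scale, which corresponds to a level up to 1.49-fold lower or 1.46-fold higher. Without centring, a fit that tests the offset of the arrays and called 745 of 1030 clones as deposited, Pis, sl and Pkc53E passed as higher under that reading. In RNA from whole heads, fewer cells of a type and less RNA per cell cannot be told apart.

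**Figure D1:**
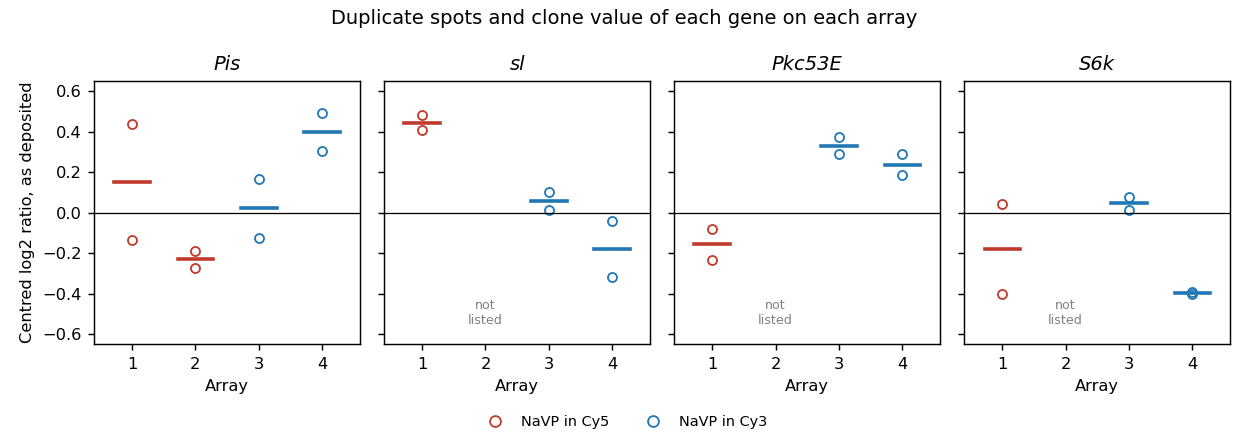
Centred log2 ratios as deposited (vertical axis) on arrays 1 to 4 for Pis, sl, Pkc53E and S6k. Open circles are the duplicate spots, horizontal bars their mean, red marks arrays with NaVP in Cy5 and blue marks arrays with NaVP in Cy3. Array 2 lists no value for sl, Pkc53E and S6k, and the duplicate spots of Pis on array 1 lie 0.57 apart.

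Pis encodes phosphatidylinositol synthase, the enzyme that joins inositol to the activated lipid and so supplies the whole pathway. It was the 1 member with a value on all 4 arrays, at 0.15, -0.23, 0.021 and 0.40 (centred log2 ratios as deposited, arrays 1 to 4). Array 4 was high and array 2 low. The Cy5 arrays lay on opposite sides of the median, and the Cy3 arrays were both above it. Its mean was -0.12 ± 0.24 in the turned reading (SD, n = 4; limma adjusted p = 0.873) and 0.084 ± 0.26 as deposited (SD, n = 4; limma adjusted p = 0.806). The 95% limma intervals ran from -0.42 to 0.18 and from -0.20 to 0.37. The SD between arrays was larger than the mean under both readings.

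The duplicate spots of Pis bear on how firmly its values can be read. They lay 0.57, 0.084, 0.295 and 0.188 apart on arrays 1 to 4, where the median difference between duplicate spots of all clones was 0.181, 0.147, 0.144 and 0.130. On array 1 the spots of Pis were at -0.14 and 0.44, on opposite sides of the median. Leaving out values whose spots differ by more than 0.5 removes array 1 for Pis and gives -0.21 ± 0.19 in the turned reading (SD, n = 3; limma adjusted p = 0.739) and 0.043 ± 0.32 as deposited (SD, n = 3; limma adjusted p = 0.940).

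The gene sl (small wing) encodes phospholipase C gamma, the form that receptor tyrosine kinases activate and that releases IP3 and diacylglycerol. Its values were 0.44 on array 1, 0.058 on array 3 and -0.18 on array 4, and array 2 listed none. Array 1, the only one with NaVP in Cy5, was high, and the swap arrays lay on either side of the median. The mean was 0.19 ± 0.25 in the turned reading (SD, n = 3; limma adjusted p = 0.799) and 0.11 ± 0.31 as deposited (SD, n = 3; limma adjusted p = 0.794). On array 1, 88.1% of the clones listed there had a lower value than sl. Its duplicate spots were close on that array, 0.075 apart.

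Pkc53E encodes a conventional protein kinase C, the calcium- and diacylglycerol-dependent kinase downstream of phospholipase C. It stood at -0.16 on array 1, 0.33 on array 3 and 0.24 on array 4, with no value on array 2. The array with NaVP in Cy5 was low and both arrays with NaVP in Cy3 were high, so that in the turned reading all 3 values were below 0. The mean was then -0.24 ± 0.088 (SD, n = 3; limma adjusted p = 0.743), a 1.18-fold lower level, with a 95% limma interval from -0.57 to 0.088. As deposited it was 0.14 ± 0.26 (SD, n = 3; limma adjusted p = 0.710).

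Pkc53E was thus the 1 gene of the 4 with the same sign on every array that measured it, and that only in the turned reading. Of all clones with 3 values, 28.1% also kept 1 sign under that reading and 34% as deposited, and of clones with 4 values 17.4% and 26.3% did. The SD of Pkc53E in the turned reading was smaller than that of 94.7% of all tested clones, and 18.9% of these clones had a mean farther from 0. As deposited, 42.9% of the clones had a larger SD. This ranking takes together clones with 3 values and the 453 clones with 4, whose SDs are not strictly alike. Another signalling gene, rdgC, also kept 1 sign in the turned reading on its 3 arrays, with an SD of 0.072. The duplicate spots of Pkc53E agreed within 0.153 on the 3 arrays. With 3 arrays the smallest p that an exact sign test can give is 0.25. Only array 1 had NaVP in Cy5 for this gene, so the separation of dye from treatment rests on that array.

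S6k encodes the S6 kinase of the TOR branch. Its values were -0.18 on array 1, 0.045 on array 3 and -0.40 on array 4, and array 2 listed none. Array 4 was low, below all but 13.1% of the clones listed there, and its duplicate spots were 0.013 apart, while those of array 1 lay 0.444 apart. The mean was 0.058 ± 0.30 in the turned reading (SD, n = 3; limma adjusted p = 0.967) and -0.18 ± 0.22 as deposited (SD, n = 3; limma adjusted p = 0.626). Its means on the Cy5 array and on the Cy3 arrays were nearly equal, -0.18 on each side.

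**Figure D2:**
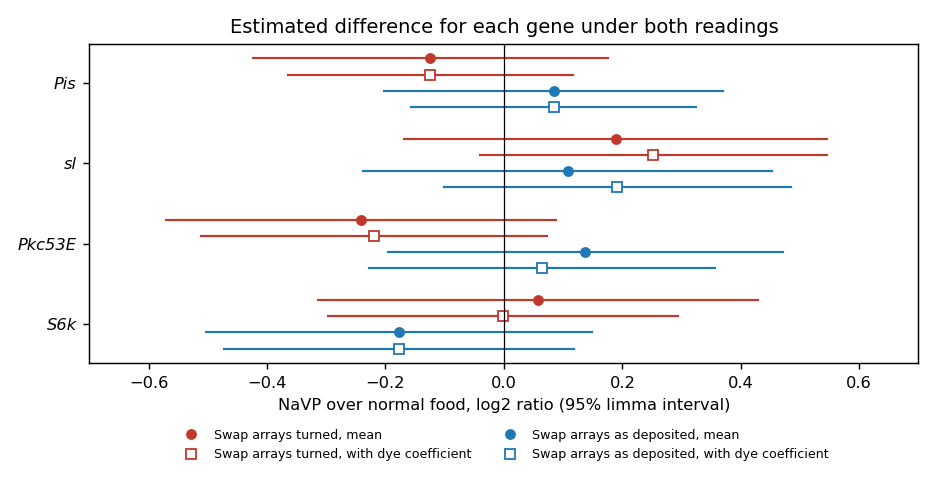
Estimated NaVP over normal food log2 ratio (horizontal axis) for Pis, sl, Pkc53E and S6k, with 95% limma intervals as lines. Red is the turned reading and blue the reading as deposited; filled circles are plain means and open squares the fit with a dye coefficient. All 16 intervals include 0.

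For the 3 genes without a value on array 2, a plain mean over 1 Cy5 array and 2 Cy3 arrays mixes treatment with dye. A limma fit with dye orientation as an additional coefficient estimates both at once. It gave -0.12 for Pis, 0.25 for sl, -0.22 for Pkc53E and -0.0013 for S6k in the turned reading (limma adjusted p = 0.670, 0.395, 0.476 and 0.997). As deposited it gave 0.084, 0.19, 0.064 and -0.18 in the same order (limma adjusted p = 0.739, 0.464, 0.844 and 0.513). This fit called 3.11% of the 1030 clones in the turned reading and 5.73% as deposited, and 0 of the 4 genes. The largest of these estimates, that of sl, had a 95% limma interval from -0.040 to 0.55. The spread in this fit is pooled over clones almost entirely (76.4 prior degrees of freedom, against 7.54 and 9.87 in the fits of the mean).

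Under each reading the 4 genes lay within the bulk of all clones. In the turned reading 2 of 4 means were above 0, with a median of -0.033, and 47.6% of all clones had a mean above 0, with a median of -0.0094. As deposited 3 of 4 were above 0, with a median of 0.096, against 60% of all clones and a median of 0.050. The order from high to low was sl, S6k, Pis, Pkc53E in the turned reading and Pkc53E, sl, Pis, S6k as deposited. The 95% limma intervals of all 4 overlapped under both readings, and differences between the genes were not tested.

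**Figure D3:**
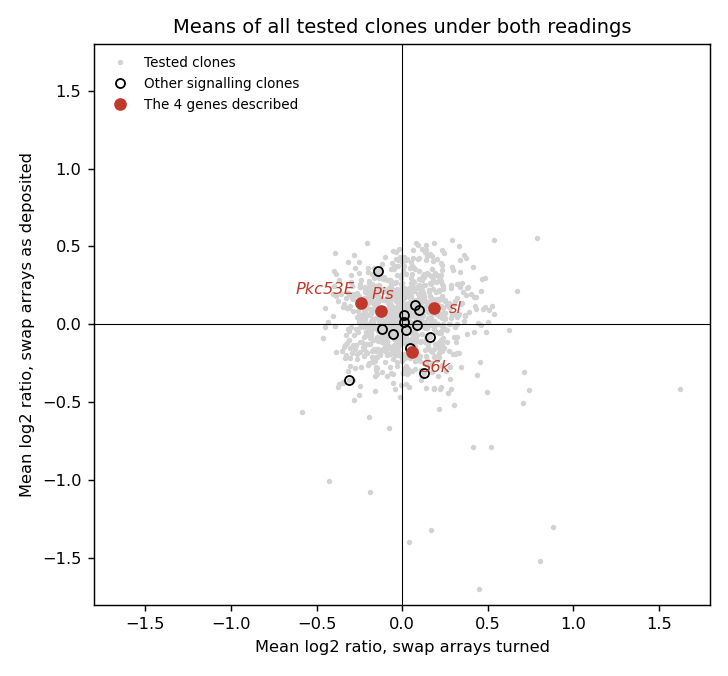
Mean log2 ratio of each of the 1030 tested clones in the turned reading (horizontal axis) and in the deposited one (vertical axis). Grey points are all clones, open circles the 13 other signalling clones and red points Pis, sl, Pkc53E and S6k, which lie within 0.25 of 0 on both axes.

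Wider lists of the pathway put these genes beside their partners. Of 182 genes in 6 lists, 180 were found in the reference gene table, 83 had a clone on the array and 37 had a value on at least 1 array. That left 16 genes, on 17 clones, with values on 3 or more arrays. Clones with values on 3 or more arrays were 9 of 18 in the list of phospholipase C, IP3, diacylglycerol and protein kinase C, which holds several photoreceptor genes. They were 2 of 32 in inositol lipid metabolism, 1 of 15 in the PI3K, Akt, TOR and S6 kinase list and 2 of 15 among receptor tyrosine kinase, MAP kinase and Src genes. In the list of GSK3, Wnt and casein kinase genes they were 1 of 4. In the cyclic nucleotide kinase list they were 2 of 8, both of G protein subunit genes (Galphao and Galphas) and none of a kinase gene. Over the 6 lists this came to 17 of 92 clones (18.5%), and among all clones with 1 gene symbol to 554 of 7558 (7.33%). Differences between these shares were not tested.

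Of the 17 signalling clones, 0 were called under either reading in the fit of the mean, or in the fit with a dye coefficient. Of all clones, the fit of the mean called 0.0971% in the turned reading and 0.777% as deposited. The fit with a dye coefficient called 3.11% and 5.73%. In the turned reading 11 of the 17 were above 0 and 6 below, with a median of 0.023. Among all clones 47.6% were above 0, with a median of -0.0094. As deposited 8 of the 17 were above and 9 below, with a median of -0.0052. Among all clones it was 60%, with a median of 0.050. Unadjusted limma p-values under 0.05 were found for 0 of the 17 in the turned reading and for 3 as deposited. All clones gave 6.89% and 14.1%. In the fit with a dye coefficient the numbers were 0 and 2, where all clones gave 15.5% and 20.7%. The SAM statistic called 0 of the 17 and 1 of all 1030 clones under either reading.

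The 3 clones with an unadjusted p under 0.05 as deposited were of trpl, Galphas and 1 of the 2 clones of Galphaq. The first, trpl, encodes a cation channel of the photoreceptor light response, downstream of phospholipase C. It was above the median on every array, at 0.10, 0.31, 0.54 and 0.43, averaging 0.34 ± 0.19 as deposited (SD, n = 4; limma adjusted p = 0.244) and -0.14 ± 0.41 in the turned reading (SD, n = 4; limma adjusted p = 0.874). With the dye coefficient its adjusted p as deposited was 0.0647. Galphas, the G protein subunit that stimulates adenylyl cyclase, was below the median on its 3 arrays, and averaged -0.32 ± 0.13 as deposited (SD, n = 3; limma adjusted p = 0.351) and 0.13 ± 0.37 in the turned reading (SD, n = 3; limma adjusted p = 0.892).

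Galphaq, the G protein subunit that couples rhodopsin to phospholipase C, had 2 clones with different values. One was at -0.54, -0.46 and -0.067 on arrays 1, 2 and 4, averaging -0.36 ± 0.26 as deposited (SD, n = 3; limma adjusted p = 0.322). The other was at -0.033, 0.0015, -0.26 and 0.13 on arrays 1 to 4, averaging -0.038 ± 0.16 as deposited (SD, n = 4, limma adjusted p = 0.928). In the turned reading the first clone averaged -0.31 ± 0.33 (SD, n = 3, limma adjusted p = 0.737). The other clone averaged 0.023 ± 0.17 when turned (SD, n = 4, limma adjusted p = 0.982). The difference between the clones was not tested.

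**Figure D4:**
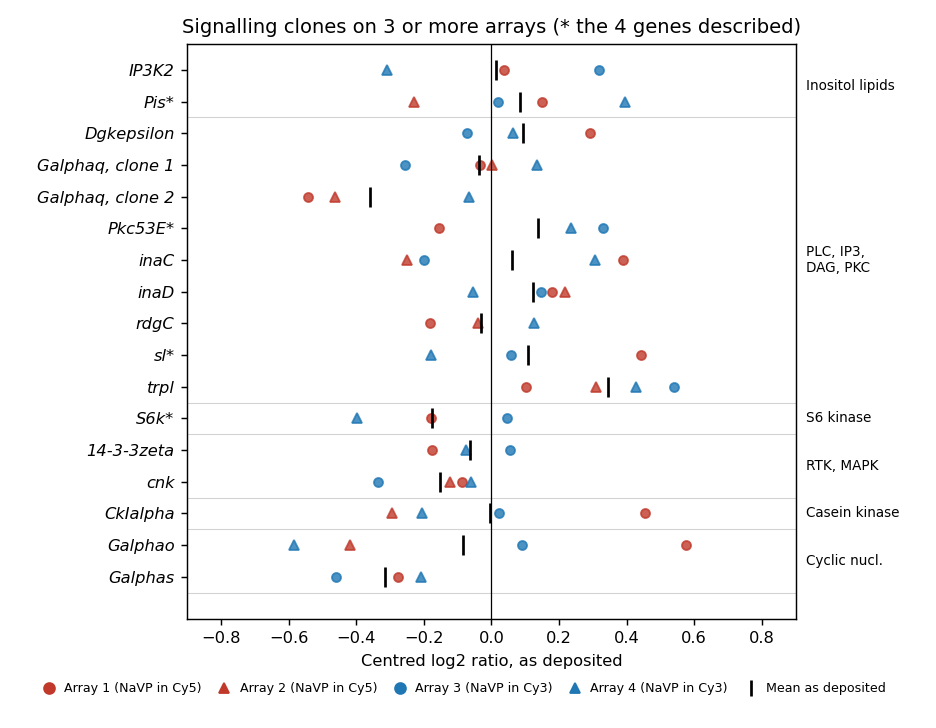
Centred log2 ratios as deposited (horizontal axis) of the 17 signalling clones with values on 3 or more arrays, 1 row per clone and grouped by list. Circles and triangles are single arrays, red with NaVP in Cy5 and blue with NaVP in Cy3, and black bars are means as deposited; trpl is the 1 clone of 4 values that lies above 0 on all 4 arrays.

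Other genes of phospholipase C signalling in photoreceptors were measured without passing the test under either reading. The eye-specific protein kinase C gene inaC had values of 0.39, -0.25, -0.20 and 0.31, high on arrays 1 and 4 and low on arrays 2 and 3. Its mean was 0.0087 ± 0.34 in the turned reading and 0.061 ± 0.33 as deposited (SD, n = 4 for each; limma adjusted p = 0.994 and 0.886). The scaffold gene inaD, which binds inaC and phospholipase C, had means of 0.075 ± 0.16 and 0.12 ± 0.12 (SD, n = 4 for each; limma adjusted p = 0.931 and 0.668). The rhodopsin phosphatase gene rdgC had -0.12 ± 0.072 and -0.032 ± 0.15 (SD, n = 3 for each; limma adjusted p = 0.876 and 0.956).

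For genes of enzymes that remove the messengers, the means were also near the median, while single arrays lay farther from it. Dgkepsilon, a diacylglycerol kinase gene, averaged 0.10 ± 0.18 in the turned reading and 0.095 ± 0.18 as deposited (SD, n = 3 for each; limma adjusted p = 0.915 and 0.806), and its other clone, on array 1 alone, was at 0.073. The averaged clone was at 0.29, -0.072 and 0.063 as deposited on arrays 1, 3 and 4. IP3K2, an IP3 kinase gene, had 0.0099 ± 0.31 and 0.015 ± 0.31 (SD, n = 3 for each; limma adjusted p = 0.994 and 0.980). Its values as deposited were 0.037, 0.32 and -0.31 on the same arrays. IP3K1, on array 4 alone, was at 0.058 as deposited and -0.058 when turned.

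Other genes outside the phospholipase C branch, of a scaffold, an adaptor, a kinase and a G protein subunit, were likewise not called. They were cnk, a scaffold of the Ras and MAP kinase route, at 0.046 ± 0.21 in the turned reading and -0.15 ± 0.13 as deposited (SD, n = 4), and 14-3-3zeta, a phosphoserine-binding adaptor, at -0.052 ± 0.12 and -0.064 ± 0.12 (SD, n = 3). CkIalpha, a casein kinase gene of the Wnt route, had means of 0.086 ± 0.32 and -0.0052 ± 0.33 (SD, n = 4). Galphao, a G protein subunit abundant in neurons, had 0.16 ± 0.50 and -0.084 ± 0.53 (SD, n = 4), the largest SD of the 17 clones under both readings.

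Another 22 signalling clones were listed on 1 or 2 arrays only and were not tested. Their 27 centred values as deposited ran from -0.999 to 0.72 on the log2 scale, 14 of them on array 1 and 0 on array 2. The ends of that range, Synj, a phosphoinositide phosphatase gene, on array 3 and Sesn, of the TOR branch, on array 1, were picked out after their values were seen. Array 3 is a swap array, so in the turned reading Synj was at 0.999, while Sesn stayed at 0.72. A further 46 genes of the lists had a clone on the array but no value on any array. Among these were Akt, Plc21C, Pkc98E, Rack1 and rdgA, and the inositol monophosphatase family genes CG9389, CG9391, CG17027 and CG17029. The gene sgg, the fly GSK3, was not analysed here. In the list of GSK3, Wnt and casein kinase genes, the 3 genes with a clone on the array were CkIalpha, Axn and dco.

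The clones closest to each gene were found by the root mean square difference of the centred values as deposited, over the 3 or 4 arrays on which the gene was measured. For Pis, over 4 arrays and 223 named clones, they were Pect (0.112), Serinc (0.122) and Trp1 (0.135), where the median clone differed by 0.349. For sl, over 3 arrays and 496 named clones, they were CkIalpha (0.026), CG3036 (0.032) and nrv1 (0.037). For Pkc53E they were GluClalpha (0.047), svp (0.058) and SdhD (0.058), and for S6k slgA (0.073), 1 of the clones of apolpp (0.080) and Ppcs (0.0998). With so few arrays, many clones lie near any pattern.

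Markers of the tissue were sparse among the tested clones. The photoreceptor genes Arr1 and chp had values on all 4 arrays, as did the neuronal gene Gad1 and the glial gene Gs2, while Arr2, trp and nSyb had a clone but no value. Arr1 averaged 0.32 ± 0.28 as deposited (SD, n = 4; limma adjusted p = 0.311) and 0.15 ± 0.43 in the turned reading (SD, n = 4; limma adjusted p = 0.873), and chp 0.15 ± 0.54 and -0.14 ± 0.54. Their part in the values of trpl was not tested. Fat body (apolpp, FASN1) and muscle (Act88F, Mlc2) genes were measured too, and no haemocyte marker reached 3 arrays. As deposited, the means were 0.22 for Gad1, -0.060 for Gs2, -0.40 and -0.095 for clones of apolpp and 0.18 for FASN1. They were 0.13 for Act88F and -0.056 for Mlc2. When turned, these means were -0.18, -0.035, 0.23, 0.011, 0.17, 0.0022 and 0.076 in the same order. None of these clones was called under either reading.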

How the data were processed

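Each deposited value is a log ratio of 1 spot on 1 array, treated as log2. Per the labels and the series' design text, the authors quantified scans in GenePix Pro 6.0, normalised ratios in Acuity 4.0 and kept spots by saturation, flags, uniformity and signal over background. Their final test was a one-class analysis in SAM 2.21. Here, adjacent spots were averaged to clones, each array was centred on its clone median, and clones on at least 3 of 4 arrays were tested with limma 3.58.1 in R 4.3.3 (intercept only, two-sided, Benjamini-Hochberg adjustment over 1030 clones, threshold 0.05), once per reading of the dye swap. The 4 arrays were 1 group. A change common to most clones is lost by centring. The script was tested on simulated data. Genes were named from a platform annotation and updated to the Release 6 gene table through gene IDs (546 of 554 tested clones with 1 symbol) or symbols and synonyms (8). The members and lists were chosen with earlier results of these data known. Named were all clones of the 4 genes, the list clones on 3 or more arrays and the 3 closest clones per gene. Marker lists covered photoreceptor, neuron, glia, fat body, muscle and haemocyte genes. No coordinates or sequences are given because the sources used here hold none for the clones.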

Additional observations from a re-analysis of the deposited data

How the results depend on the processing

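The lack of a call for Pis, sl, Pkc53E and S6k held under every alternative run except the fit of values as deposited and not centred, where the array medians above 0 enter the test. There 745 clones passed as deposited and 0 when turned, and Pis (0.79), sl (0.71) and Pkc53E (0.74) passed as higher as deposited (limma adjusted p = 0.00520, 0.0241 and 0.0191), while S6k turned to 0.42 and, in the turned reading, Pis to 0.19. In every setting that fitted it, Pkc53E stayed below 0 in the turned reading and above 0 as deposited. The gene sl likewise stayed above 0 in the turned reading. S6k in the turned reading changed sign with the dye coefficient (-0.0013), with centring on runs of consecutive spots (-0.006) and with arrays left out (-0.11 to 0.18, negative without array 4). As deposited, Pis changed sign when arrays were centred on the clones of all 4 arrays (-0.0066) and without array 4 (-0.020 to 0.19 over the 4 fits), and sl without array 1 (-0.061 to 0.25). Both of these centrings were added after seeing the data. Without array 1, sl, Pkc53E and S6k have values with NaVP in Cy3 alone, so dye and treatment cannot be told apart there. With the swap arrays turned, the number of clones called was 1 in the fit reported, 0 for clones on at least 2 arrays or on all 4, 32 with the dye coefficient, 5 over gene means, 2 with runs of spots and 0 to 14 with an array left out, the highest without array 1. As deposited it was 8, against 24, 1, 59, 6 and 19 in the same order (24 for at least 2 arrays, 1 for all 4), 4 without discordant spots, 1 by the SAM statistic and 4 to 31 with an array left out (lowest without array 3, highest without array 1). The cause of these shifts was not tested. Requiring all 4 arrays leaves Pis alone of the 4 genes. Centring by print block was not run, since blocks are not given in the sources used here. No paired analysis was possible because each array already holds its treated and control pool and the ratios form 1 group.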
